A study of Xenopus laevis with 16 samples.

Results

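Tight junctions seal the space between neighbouring epithelial cells. The genes described here encode their claudins, their other membrane proteins, the scaffolds under them and the Par polarity proteins. Members were all probe sets whose single gene symbol, in the platform's probe-to-gene annotation, names a claudin, a tjp, marveld, pard3, pard6 or patj gene, or ocln, cgn, cgnl1, f11r, crb3 or mpp5. The rule used names only and no measured value, but it was chosen with earlier results of these data known. It found 40 probe sets for 30 gene copies among the 32539 probe sets tested, of which 15495 carry 1 symbol. Of the 40, 22 stand for 17 claudin copies, 7 for 5 copies of other membrane proteins, 8 for 5 scaffold copies and 3 for 3 polarity copies. Xenopus laevis carries 2 subgenomes, and the endings .L and .S mark the copies of a gene. No probe set met the rule for patj, crb3, mpp5 or marveld2.

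Animal caps are ectoderm cut from the top of a Xenopus blastula, and on their own they form epidermis. The study asked which genes respond to Pax3 and Zic1, transcription factors of the neural plate border, and which respond when translation is blocked. Expression was measured on 16 Affymetrix arrays of 15 biological samples, 3 in each of 5 groups. Pax3 and Zic1 caps with cycloheximide came from embryos injected at the 2 to 4 cell stage with both Pax3-GR and Zic1-GR, fusions that dexamethasone switches on. They received cycloheximide at 0.1 mg/ml for 30 min from stage 10, and then dexamethasone for 2 h from stage 10.5 with the drug still present. Pax3 and Zic1 caps had the same injections and the hormone without the drug. Pax3 caps with cycloheximide and Pax3 caps were injected with Pax3-GR alone and treated in the same 2 ways. Control caps were not injected and had neither dexamethasone nor cycloheximide. All caps were cut at stage 9 and lysed when sibling embryos reached stage 11.5 to 12. Any difference from control caps therefore holds the factor, the injection and the hormone together, and with the drug also the drug. No label names the strain of the frogs or the number of caps in a sample.

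Claudins span the membrane 4 times and join across the cell border into strands that close the space between cells or let chosen ions pass. Occludin and Marveld3 lie in the same strands, and F11r, the junctional adhesion molecule A, is an immunoglobulin-type protein beside them. The tjp genes encode the zonula occludens scaffolds, which with cingulin and the cingulin-like protein Cgnl1 tie the strands to actin. Pard3 and Pard6 belong to the Par complex, which sets where along the side of an epithelial cell the junction forms. The outer cell layer of an animal cap is an epithelium with such junctions.

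The labels were checked first. The pax3.S probe set Xl2.49495.3.S1_x_at averaged 6.79, 6.90, 6.27 and 5.91 (log2) in Pax3 and Zic1 caps with cycloheximide, Pax3 and Zic1 caps, Pax3 caps with cycloheximide and Pax3 caps, against 1.94 in control caps. A zic1.S probe set, Xl2.1796.1.S1_at, averaged 10.01 in Pax3 and Zic1 caps with cycloheximide, 9.29 in Pax3 and Zic1 caps, 8.87 in Pax3 caps with cycloheximide and 8.15 in Pax3 caps, against 7.14 in control caps. The second zic1.S probe set, Xl2.1796.1.S2_at, ordered the groups otherwise, at 9.92, 8.56, 10.18 and 9.13 in the same 4 groups and 8.21 in control caps, so that it stood lower with both factors than with Pax3 alone. Of 7 pax3 probe sets 3 stood above every control in all injected samples, and the other 4 differed from control by -0.92 to 0.39. No label says which of these probe sets can detect the injected constructs. Epidermal markers were high in control caps, with krt12.4.L at 11.10, krt70.S at 12.32 and itln1.L at 7.95. The number of arrays limits the precision, and array means lay between 4.956 and 4.988.

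In what follows a level is the deposited log2 value, and a difference is one of group means on that log2 scale, ± its standard error, with n = 3 in each group. A probe set passed where limma's adjusted p was under 0.05, with adjustment over all 32539 probe sets. Samples of one replicate number deviated together across the groups. A second fit, with that number as a block, is therefore given beside the results whose call it changes, and its p is called the blocked adjusted p. Levels of different probe sets were not compared with each other. The 4 comparisons with control caps share the control samples.

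Of the 40 probe sets, 6 passed in at least 1 of the 9 comparisons, for cldn5.L, cldn5.S, cldn4.L (2 probe sets), cldn18.L and tjp3.L. Another 13 passed with the block alone, and 21 passed in neither fit. The share of all probe sets that passed in at least 1 of the 9 comparisons was not counted. With the block as many as 18.9% of all probe sets passed in a single comparison. Counts by role below that span the comparisons therefore have no matching share. With both factors and the drug, 2 were higher and 4 lower than in control caps, where 4.56% of all probe sets passed, 2.21% higher and 2.35% lower. Without the drug, 2 were higher and 0 lower in Pax3 and Zic1 caps, where 0.492% of all probe sets passed, 0.289% higher and 0.203% lower. In Pax3 caps against control caps 0 passed, both without the drug (0.286% of all probe sets) and with it (2.53%), while 4 and 8 members had an unadjusted p under 0.05. The share of all probe sets with an unadjusted p under 0.05 was not counted. These counts, and the like counts below, therefore have no background beside them. With the block the members that passed numbered 13 in Pax3 and Zic1 caps with cycloheximide (18.9% of all), 7 in Pax3 and Zic1 caps (4.35%), 11 in Pax3 caps with cycloheximide (14.9%) and 1 in Pax3 caps (2.14%). The median difference of the 40 from control was -0.03, -0.12, -0.04 and -0.09 in these groups, in that order, beside -0.03, 0.00, -0.03 and 0.02 over all probe sets.

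**Figure D1:**
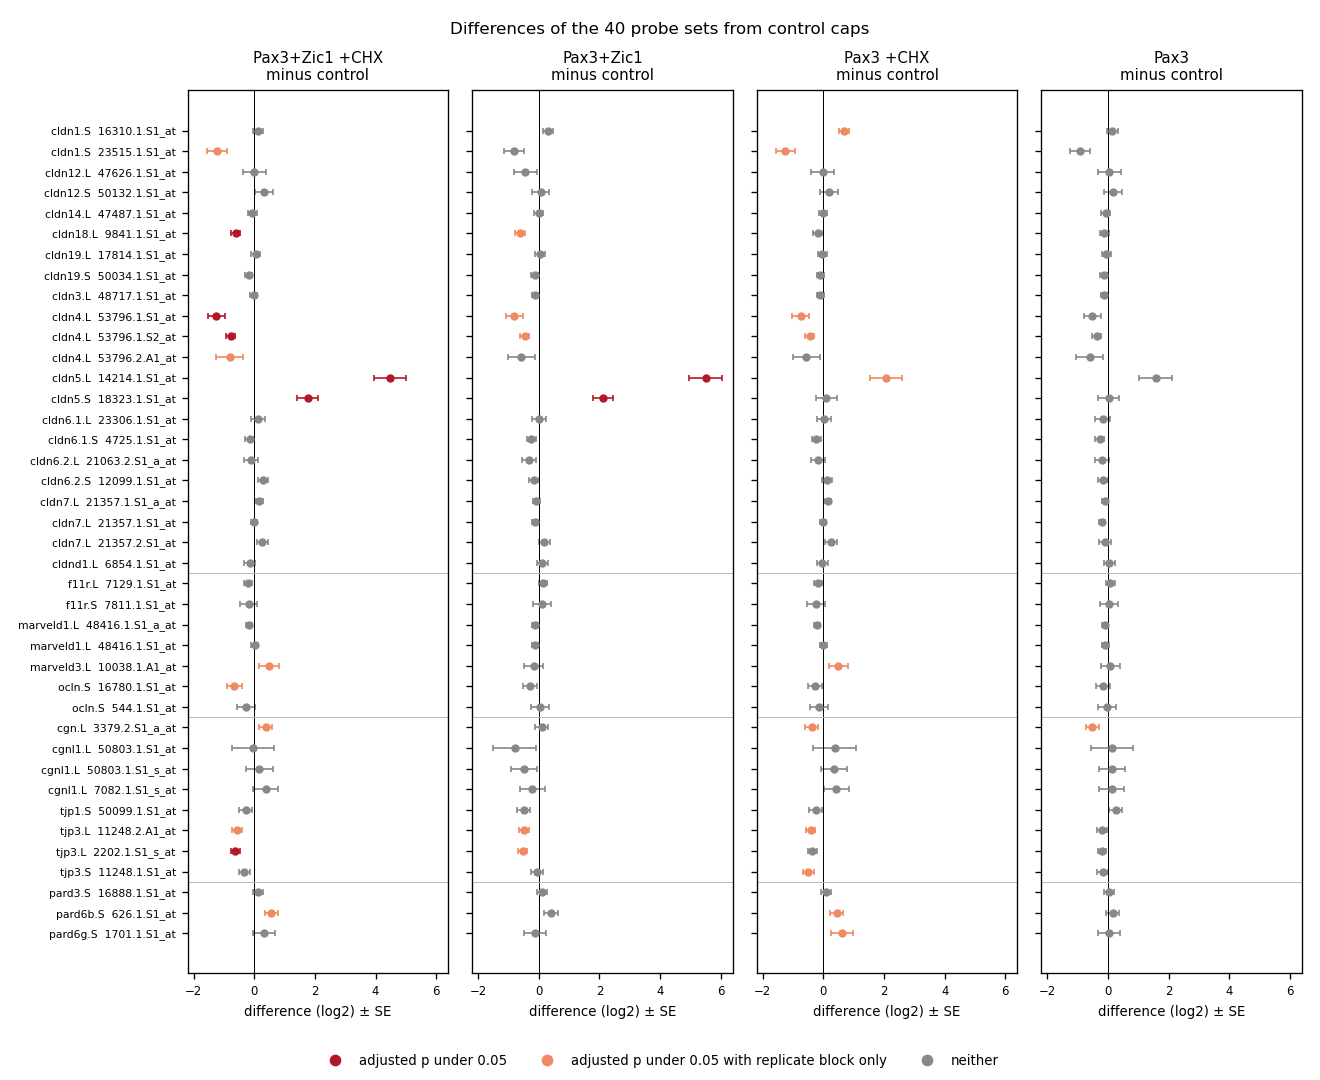
Differences from control caps (log2, ± SE, n = 3 per group) of the 40 probe sets, one per row, in claudins, other membrane proteins, scaffolds and polarity proteins from top to bottom. Red points passed, orange points passed with the replicate block alone, and grey points passed in neither fit. The cldn5.L point stands at 4.488 and 5.503 in the 2 panels of Pax3 and Zic1 caps, and most other points lie within 1 unit of 0.

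Claudin 5, in mammals the main claudin of blood vessel walls, rose most. With both factors the level of cldn5.L (probe set Xl2.14214.1.S1_at) was 5.58, 7.29 and 7.47 with cycloheximide, and 6.52, 8.26 and 8.60 without it. With Pax3 alone it was 4.34, 4.07 and 4.67 with cycloheximide, and 3.97, 3.72 and 3.88 without it, against 1.98, 2.60 and 2.29 in control caps. No sample of the groups with both factors overlapped a Pax3 sample, and no Pax3 sample overlapped a control sample. Group means were 6.78 ± 1.04, 7.79 ± 1.11, 4.36 ± 0.30, 3.86 ± 0.13 and 2.29 ± 0.31 (SD, n = 3) in the same order.

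cldn5.L was 5.503 ± 0.53 higher in Pax3 and Zic1 caps than in control caps (adjusted p = 0.00104). With cycloheximide the rise was 4.49 ± 0.53 (adjusted p = 0.00058). The control level lay in the range of the lowest 25% of probe sets (up to 2.73), where it was not shown to be above background, so no fold against it is given. Both calls held when any 1 of the 15 samples was left out, with adjusted p up to 0.0117 and 0.00399, but the call without the drug was lost when only those 2 groups were fitted (adjusted p = 0.0613). With Pax3 alone the difference from control was 1.57 ± 0.53 (adjusted p = 0.595, blocked 0.0889), and with the drug 2.07 ± 0.53 (adjusted p = 0.0683, blocked 0.00633). The Pax3 difference with the drug passed without Pax3 and Zic1 replicate 1 (adjusted p = 0.0202) or without Pax3 and Zic1 with cycloheximide replicate 1 (adjusted p = 0.0262), and also when only the 2 groups were fitted (adjusted p = 0.0234). The difference was positive in 3 of 3 replicate numbers in each of these comparisons.

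Zic1 added to Pax3 was compared at matched hormone. Without the drug cldn5.L was 3.93 ± 0.53 higher in Pax3 and Zic1 caps than in Pax3 caps, or 15.3-fold (adjusted p = 0.0458, 3 of 3 replicate numbers). It was 1 member of 40 to pass there, where 0.0184% of all probe sets, 6 of them, passed. That call is close to the threshold: it held only without Pax3 and Zic1 replicate 1 or without replicate 1 or 2 of Pax3 and Zic1 caps with cycloheximide, and each of the other 12 samples left out took it away (adjusted p up to 0.283, difference 3.53 or more), as did fitting only the 2 groups (adjusted p = 0.521). With cycloheximide in both groups the difference was 2.42 ± 0.53 (adjusted p = 0.248, blocked 0.0227). It passed without replicate 1 of Pax3 and Zic1 caps with cycloheximide (adjusted p = 0.0366). The change of the Zic1 difference with the drug was -1.52 ± 0.75 (95% interval -3.16 to 0.12, adjusted p = 1).

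The second copy, cldn5.S (Xl2.18323.1.S1_at), moved with both factors and stood near the control level with Pax3 alone. Its level was 5.696, 5.98 and 5.88 in cycloheximide-treated Pax3 and Zic1 caps, and 5.29, 6.29 and 7.02 in Pax3 and Zic1 caps. It was 4.32, 4.46 and 3.76 in Pax3 caps with cycloheximide and 4.21, 4.07 and 4.04 in Pax3 caps, against 3.82, 4.10 and 4.35 in control caps. The groups with both factors stood above every other sample, and those with Pax3 alone overlapped the controls.

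cldn5.S was 2.11 ± 0.34 higher in Pax3 and Zic1 caps than in control caps, or 4.32-fold (adjusted p = 0.0182), and 1.76 ± 0.34 higher with the drug, or 3.40-fold (adjusted p = 0.0104). The first call was lost without control replicate 1, 2 or 3 or Pax3 and Zic1 replicate 2 (adjusted p 0.0575 to 0.0947), and the second held in all 15 such fits. Fitting only the 2 groups also ended the first (adjusted p = 0.286). Against Pax3 caps the difference was 2.09 ± 0.34 without the drug (adjusted p = 0.0684, blocked 0.00996) and 1.67 ± 0.34 with it (adjusted p = 0.192, blocked 0.037). Both passed without Pax3 and Zic1 replicate 1 (adjusted p = 0.00493 and 0.0361). In Pax3 caps the difference from control was 0.02 (95% interval -0.72 to 0.76) and with the drug 0.10 (95% interval -0.64 to 0.83). The difference of cldn5.L in Pax3 caps from control has a 95% interval of 0.41 to 2.73, and no test of one copy against the other was made.

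**Figure D2:**
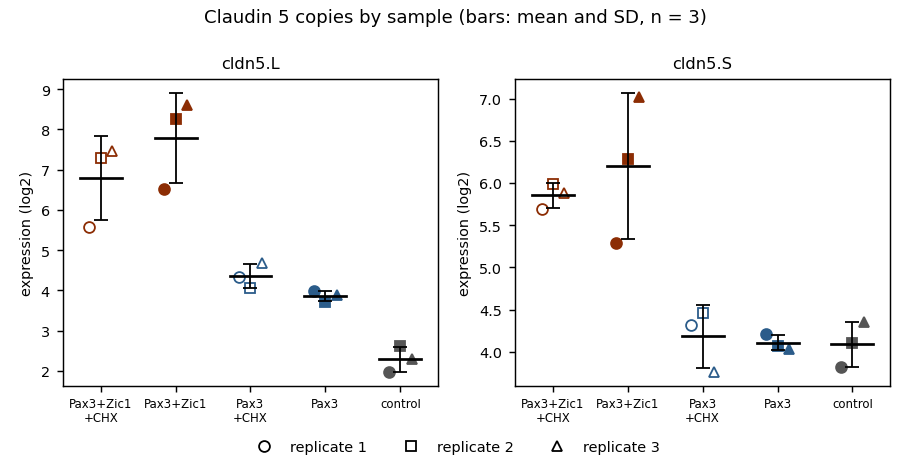
Levels (log2) of cldn5.L and cldn5.S in each sample, by group, with the group mean and SD (n = 3). Symbols mark the replicate number, and open symbols the caps with cycloheximide. Both copies stand highest in the 2 groups with both factors; for cldn5.L the groups with Pax3 alone lie between 3.72 and 4.67, above the control samples.

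Since claudin 5 marks vessel walls in mammals, markers of endothelium and blood were counted beside it. Of all probe sets, 4.56% passed with both factors and the drug and 2.53% in Pax3 caps with cycloheximide (18.9% and 14.9% with the block). Without the drug the shares were 0.492% with both factors and 0.286% with Pax3 alone (4.35% and 2.14% with the block). Of 14 gene copies, 0 passed in Pax3 and Zic1 caps against control caps and 4 were higher with cycloheximide, for aplnr.L, aplnr.S, etv2.L and tal1.S (6 with the block). In Pax3 caps with cycloheximide 1 was higher, aplnr.S (2 with the block), and in Pax3 caps 0 passed in either fit. With the block 1 was higher in Pax3 and Zic1 caps without the drug, tal1.S, by 1.86 (adjusted p = 0.371, blocked 0.0381). The summed linear level of the 14 ranged from 2722.1 to 3381.9 in Pax3 and Zic1 caps with cycloheximide, 455.66 to 1290.1 in Pax3 and Zic1 caps, 1077.6 to 3318.6 in Pax3 caps with cycloheximide and 428.66 to 971.14 in Pax3 caps, against 319.61 to 671.18 in control caps. Such a sum is set mostly by the brightest copies. The median log2 level of the 14 was 3.190 to 4.223, 2.688 to 3.310, 2.560 to 3.004 and 2.672 to 2.876 in the same order, against 2.704 to 2.886 in control caps. In Pax3 and Zic1 caps, where cldn5.L stood highest, 10 of the 14 differences from control were positive, with a median of 0.11 beside 0.00 over all probe sets. There the receptor genes aplnr.L and aplnr.S were at 8.24 and 7.28, and neither passed against control caps in either fit. Of the 14, 5 lay in the lowest 25% of probe sets by mean level, flt1.L, flt1.S, fli1.S, gata1.S and lmo2.S. The part of such cells in the claudin 5 result was not tested.

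Claudin 4, a barrier claudin of surface epithelia, was lowest with both factors and the drug. One cldn4.L probe set, Xl2.53796.1.S1_at, was at 9.10, 9.91 and 9.18 in cycloheximide-treated Pax3 and Zic1 caps, against 10.68, 10.83 and 10.46 in control caps. Between these it was at 9.87, 10.30 and 9.39 in Pax3 and Zic1 caps, 9.89, 10.23 and 9.61 in Pax3 caps with cycloheximide, and 9.93, 10.56 and 9.92 in Pax3 caps. All samples with both factors and all Pax3 samples with the drug lay below every control, and Pax3 replicate 2 lay among them.

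That probe set fell by 1.26 on the log2 scale, ± 0.28, in Pax3 and Zic1 caps with cycloheximide, or 2.39-fold (adjusted p = 0.0241, 3 of 3 replicate numbers). The call was lost without control replicate 1, 2 or 3 or without Pax3 and Zic1 with cycloheximide replicate 1 or 3 (adjusted p 0.0501 to 0.0972), and when only the 2 groups were fitted (adjusted p = 0.0765). A second cldn4.L probe set, Xl2.53796.1.S2_at, was at 10.40, 10.70 and 10.39 in these caps, against 11.23, 11.36 and 11.22 in control caps. It fell by 0.78 ± 0.15 (adjusted p = 0.0092), and the call held without any 1 of the 15 samples (adjusted p up to 0.0448) but not when only the 2 groups were fitted (adjusted p = 0.06). The third, Xl2.53796.2.A1_at, was at 8.67, 9.06 and 8.24 in these caps, against 9.68, 9.89 and 8.83 in control caps. Its difference of -0.81 ± 0.44 had an adjusted p of 0.425 (blocked 0.0185), and its groups overlapped.

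In 3 other comparisons cldn4.L passed with the block alone. Without the drug, both factors gave differences from control of -0.81 ± 0.28 and -0.47 ± 0.15 in the first 2 probe sets (adjusted p = 0.429 and 0.311, blocked 0.00568 and 0.00986). In Pax3 caps with cycloheximide they differed by -0.75 ± 0.28 and -0.45 ± 0.15 (adjusted p = 0.259 and 0.167, blocked 0.0031 and 0.00481). The drug added to both factors gave -0.45 ± 0.28 and -0.31 ± 0.15 (adjusted p = 0.523 and 0.38, blocked 0.0371 and 0.0313). In RefSeq's gene order cldn4.L neighbours cldn3.L with 0 genes between them. The cldn3.L probe set was among the lowest 25% by level, at 1.66 to 1.76 on average in the 4 injected groups and 1.78 in control caps, and it passed in neither fit.

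Epidermal and non-neural ectoderm markers were lower in the same samples. The shares of all probe sets given for the endothelium and blood markers apply to their counts. Of 21 gene copies, 9 fell and 1 rose, foxi1.L, in Pax3 and Zic1 caps with cycloheximide against control caps, with a median difference of -1.27. Without the drug 1 fell and 0 rose in Pax3 and Zic1 caps (median -1.07), and with the block 6 fell, beside 14 with the drug. In Pax3 caps with cycloheximide 4 fell and 1 rose (9 and 1 with the block), and in Pax3 caps 0 passed (3 fell with the block). The keratin krt12.4.L, an epidermal intermediate filament gene, fell by 3.27 ± 0.50 with both factors and the drug (adjusted p = 0.00266). The summed linear level of the 21 ranged from 7144.3 to 13628 in Pax3 and Zic1 caps with cycloheximide, 10622 to 12730 in Pax3 and Zic1 caps without it, 9747.5 to 15343 in Pax3 caps with cycloheximide and 9632 to 15940 in Pax3 caps, against 16623 to 23575 in control caps. In whole caps, fewer cells of a type and less RNA per cell cannot be told apart, and the part of the epidermal markers in the claudin 4 result was not tested.

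Claudins 6 and 7 stayed near the control level. The 4 claudin 6 copies, which lie side by side as cldn6.1 and cldn6.2 on each subgenome, differed from control by -0.31 to 0.29 over the 4 injected groups. The difference of cldn6.1.L in Pax3 and Zic1 caps was -0.01 (95% interval -0.52 to 0.50). cldn6.2.S was at 10.57, 10.40 and 10.47 in cycloheximide-treated Pax3 and Zic1 caps, against 10.28, 10.18 and 9.63 without the drug, which do not overlap. That difference of 0.45 ± 0.16 had an adjusted p of 0.228 (blocked 0.0446). The 3 probe sets of cldn7.L, a claudin of many epithelia, differed from control by -0.19 to 0.27 and passed in neither fit. For Xl2.21357.1.S1_at the 95% interval was -0.22 to 0.20 in Pax3 and Zic1 caps with cycloheximide.

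Several claudins were measured near the bottom of the scale. Of the 22 claudin probe sets, 7 lay in the lowest 25% of all probe sets by mean level (up to 2.73), those of cldn1.S, cldn3.L, cldn14.L, cldn18.L, cldn19.L and cldn19.S. Of these cldn18.L, a claudin of lung and stomach in mammals, was at 1.92, 1.89 and 1.99 in cycloheximide-treated Pax3 and Zic1 caps, against 2.57, 2.43 and 2.65 in control caps. It was at 2.09, 1.90 and 1.81 in Pax3 and Zic1 caps, 2.21, 2.42 and 2.50 in Pax3 caps with cycloheximide and 2.06, 2.67 and 2.57 in Pax3 caps. Samples with both factors lay below all controls, and those with Pax3 alone overlapped them.

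cldn18.L was lower by 0.62 ± 0.16 in Pax3 and Zic1 caps with cycloheximide (difference -0.62, adjusted p = 0.0423), and its difference of -0.62 in Pax3 and Zic1 caps had an adjusted p of 0.146 (blocked 0.0381). The first call was lost in 11 of the 15 fits without 1 sample (adjusted p up to 0.143). It was kept only without Pax3 replicate 1 or 2 or without Pax3 and Zic1 replicate 1 or 3. It was also lost when only the 2 groups were fitted (adjusted p = 0.0743) and with array 2.1 alone for Pax3 and Zic1 replicate 2 (adjusted p = 0.0555).

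The 2 probe sets of cldn1.S, both dim, differed from control in opposite directions with cycloheximide. The probe set Xl2.23515.1.S1_at was at 1.76, 1.51 and 1.73 in cycloheximide-treated Pax3 and Zic1 caps and 1.59, 1.71 and 1.60 in Pax3 caps with cycloheximide, against 1.92, 3.11 and 3.61 in control caps. Its differences were -1.22 ± 0.33 (adjusted p = 0.0594, blocked 0.00818) and -1.25 ± 0.33 (adjusted p = 0.0744, blocked 0.00908). Control replicate 1 stood well below the other controls, and without it both passed (adjusted p = 0.00238 and 0.00351). The other, Xl2.16310.1.S1_at, was at 2.47, 2.63 and 2.87 in Pax3 caps with cycloheximide, against 2.05, 1.87 and 2.01 in control caps, with no overlap. Its difference there was 0.68 ± 0.17 (adjusted p = 0.0656, blocked 0.015).

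The remaining claudin probe sets passed in neither fit. Counting those of claudins 6 and 7, this holds for 13 probe sets of 11 copies, with differences from control of -0.45 to 0.32. Both ends belong to claudin 12, at -0.45 ± 0.37 for cldn12.L in Pax3 and Zic1 caps and 0.32 ± 0.29 for cldn12.S with the drug. The claudin-domain gene cldnd1.L averaged 6.74, 7.01, 6.86 and 6.94 in the injected groups, against 6.90 in control caps.

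**Figure D3:**
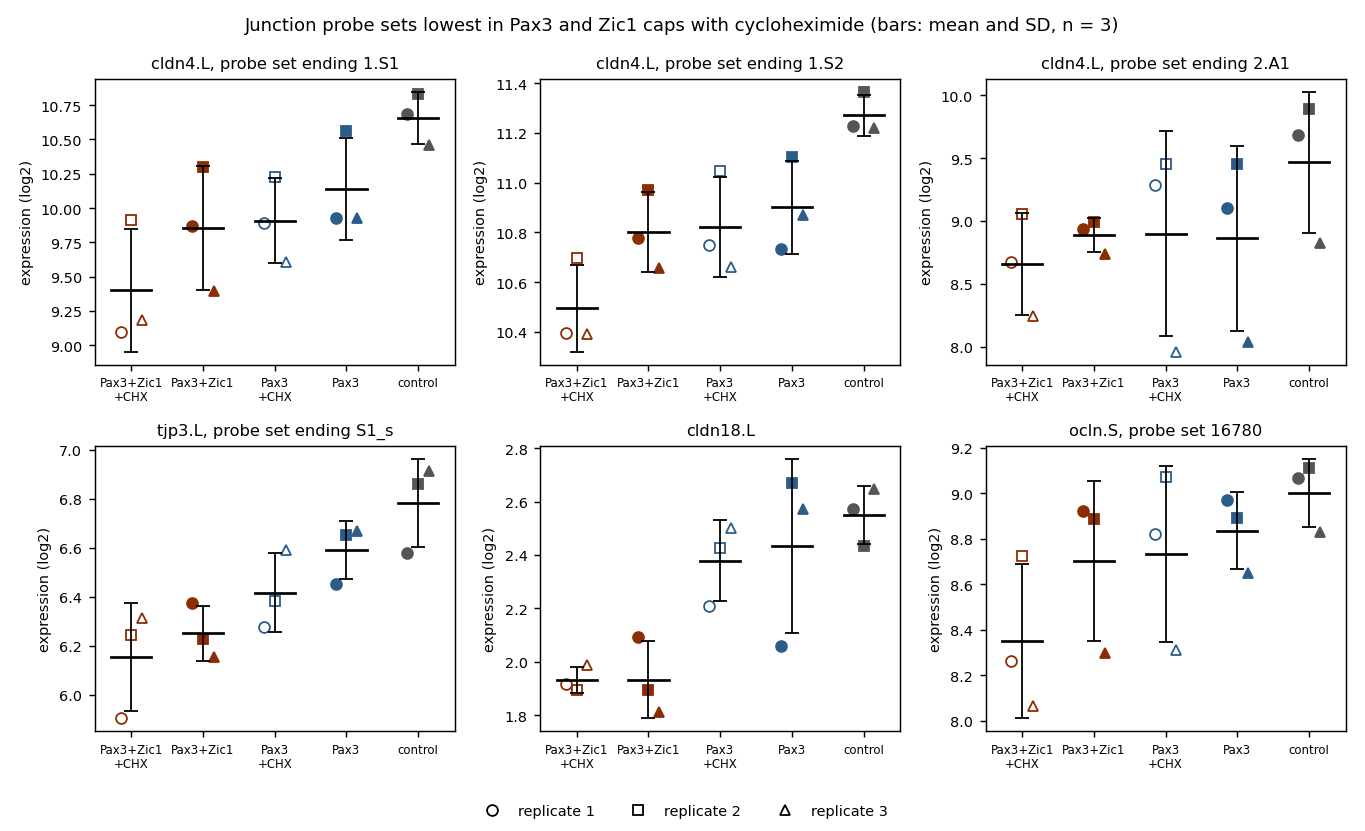
Levels (log2) per sample of 6 probe sets that stood lowest in Pax3 and Zic1 caps with cycloheximide or in Pax3 and Zic1 caps, with group mean and SD (n = 3); each panel has its own scale, which does not start at 0. The cldn4.L probe sets ending 1.S1 and 1.S2 lie below the controls in all samples with both factors, and the cldn18.L panel covers a narrow range near 2.

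Among the other membrane proteins none of the 7 probe sets passed, and 4 passed with the block alone. Occludin is a strand protein of the same junctions, and the ocln.S probe set Xl2.16780.1.S1_at was at 8.26, 8.72 and 8.06 in cycloheximide-treated Pax3 and Zic1 caps, against 9.07, 9.11 and 8.83 in control caps, with no overlap. Its difference was -0.65 ± 0.24 (adjusted p = 0.167, blocked 0.0041). A dimmer ocln.S probe set, Xl2.544.1.S1_at, averaged 2.64 in these caps, against 2.92 in control caps, and passed in neither fit.

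Marveld3, a membrane protein related to occludin, stood higher with the drug. marveld3.L was at 8.14, 8.32 and 7.74 in cycloheximide-treated Pax3 and Zic1 caps, against 7.72, 7.56 and 6.96 in Pax3 and Zic1 caps and 7.86, 7.87 and 7.03 in control caps. Replicate 3 was the lowest of each group, and the differences, of 0.66 ± 0.32 from the caps without the drug (adjusted p = 0.403, blocked 0.0061) and 0.48 ± 0.32 from control (adjusted p = 0.554, blocked 0.0194), passed with the block alone. In Pax3 caps with cycloheximide the difference from control was 0.49 ± 0.32 (adjusted p = 0.598, blocked 0.0217). With Pax3 alone marveld3.L averaged 8.08 with the drug and 7.67 without it, and that drug difference passed in neither fit.

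The adhesion molecule gene f11r differed little from control, by -0.24 to 0.13 over both copies and the 4 injected groups. f11r.L was at 9.54, 9.45 and 9.72 in cycloheximide-treated Pax3 and Zic1 caps, against 9.85, 9.83 and 10.06 in Pax3 and Zic1 caps, with no overlap. That drug difference was -0.34 ± 0.14 (adjusted p = 0.273, blocked 0.0257), and for f11r.S it was -0.29 ± 0.29 (adjusted p = 0.72, blocked 0.0393). Both marveld1.L probe sets were among the lowest 25% by level and passed in neither fit.

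Of the 8 scaffold probe sets 1 passed, for tjp3.L, the gene of zonula occludens 3. The median scaffold difference from control was -0.16 in Pax3 and Zic1 caps with cycloheximide (5 of 8 negative), -0.49 in Pax3 and Zic1 caps (7 of 8), -0.31 in Pax3 caps with cycloheximide (5 of 8) and -0.03 in Pax3 caps (4 of 8), beside medians of -0.03, 0.00, -0.03 and 0.02 over all probe sets. Of the 8, 3 are probe sets of cgnl1.L and 2 of tjp3.L. The tjp3.L probe set Xl2.2202.1.S1_s_at was at 5.90, 6.24 and 6.31 in cycloheximide-treated Pax3 and Zic1 caps, and 6.37, 6.23 and 6.15 in Pax3 and Zic1 caps. It was at 6.28, 6.38 and 6.59 in Pax3 caps with cycloheximide and 6.45, 6.65 and 6.67 in Pax3 caps, against 6.58, 6.86 and 6.91 in control caps. All samples with both factors lay below the controls.

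This tjp3.L probe set fell by 0.63 on the log2 scale, ± 0.14, in Pax3 and Zic1 caps with cycloheximide, or 1.55-fold (adjusted p = 0.0268). The call was lost without control replicate 2 or 3 or without Pax3 and Zic1 with cycloheximide replicate 1 or 2 (adjusted p 0.0514 to 0.105), when only the 2 groups were fitted (adjusted p = 0.163) and with trend and robust (adjusted p = 0.063). Without the drug its difference was -0.53 ± 0.14 (adjusted p = 0.188, blocked 0.0267). The ending _s_at marks probes that may match more than 1 transcript. A second tjp3.L probe set, Xl2.11248.2.A1_at, pointed the same way, with -0.57 ± 0.18 (adjusted p = 0.0655, blocked 0.00508) with both factors and the drug and -0.49 ± 0.18 (adjusted p = 0.33, blocked 0.033) without the drug. In Pax3 caps with cycloheximide its difference from control was -0.42, which passed with the block alone (blocked adjusted p = 0.028). For Pax3 and Zic1 caps without the drug, the blocked calls of both tjp3.L probe sets were lost when Pax3 and Zic1 replicate 3 was left out. For the dim probe set of tjp3.S the difference was -0.49 ± 0.18 in Pax3 caps with cycloheximide (adjusted p = 0.252, blocked 0.0377).

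Cingulin was the scaffold gene whose level differed between Pax3 caps and caps with both factors in the blocked fit. cgn.L was at 8.54, 8.76 and 8.95 in cycloheximide-treated Pax3 and Zic1 caps and 8.18, 8.41 and 8.81 in Pax3 and Zic1 caps. It was at 7.79, 8.14 and 8.04 in Pax3 caps with cycloheximide and 7.56, 7.87 and 8.15 in Pax3 caps, against 8.10, 8.29 and 8.73 in control caps. With the drug, caps with both factors lay above all Pax3 samples, and replicate 1 was the lowest of every group.

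For cgn.L the difference of Zic1 added to Pax3 was 0.61 ± 0.22 without the drug (adjusted p = 0.792, blocked 0.0229) and 0.76 ± 0.22 with it (adjusted p = 0.626, blocked 0.0094). When Pax3 and Zic1 replicate 3 was left out, the blocked call was lost without the drug and held with it. With the block, 3 members passed in each of these comparisons, cgn.L and both claudin 5 copies, all higher. Of all probe sets 1.12% passed without the drug (0.759% higher) and 0.744% with it (0.544% higher). With the drug 0 members passed without the block, where 0.0338% of all probe sets passed, and 6 had an unadjusted p under 0.05. Against control caps cgn.L differed by -0.52 ± 0.22 in Pax3 caps (adjusted p = 1, blocked 0.0283), -0.38 ± 0.22 in Pax3 caps with cycloheximide (adjusted p = 0.519, blocked 0.0342) and 0.38 ± 0.22 with both factors and the drug (adjusted p = 0.46, blocked 0.03).

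The tjp1.S gene, for zonula occludens 1, was at 4.32, 4.25 and 3.80 in Pax3 and Zic1 caps, against 5.02, 4.78 and 4.83 in Pax3 caps, with no overlap. The difference was -0.75 ± 0.22 (adjusted p = 0.501, blocked 0.148), and with the drug in both groups -0.02 ± 0.22. The change of that difference with the drug was 0.73 ± 0.31 (adjusted p = 1). The 3 probe sets of cgnl1.L passed in neither fit, and one of them had the largest difference of any member between arrays 2.1 and 2.2 of one sample, 0.786. Their differences from control ran from -0.80 to 0.43, both for this gene, with a 95% interval of -2.32 to 0.72 around the first.

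Of the polarity genes, none of the 3 probe sets passed, and pard6b.S and pard6g.S, for adaptor proteins of the Par complex, passed with the block. pard6b.S was at 5.99, 5.91 and 5.36 in cycloheximide-treated Pax3 and Zic1 caps and 5.72, 5.67 and 5.496 in Pax3 caps with cycloheximide, against 5.24, 5.49 and 4.84 in control caps. The differences were 0.57 ± 0.21 (adjusted p = 0.211, blocked 0.00671) and 0.44 ± 0.21 (adjusted p = 0.442, blocked 0.0291). Replicate 3 was the lowest of each group.

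pard6g.S was at 8.10, 7.59 and 7.28 in Pax3 caps with cycloheximide, against 7.74, 6.71 and 6.87 in Pax3 caps and 7.62, 6.85 and 6.71 in control caps. The drug difference was 0.55 ± 0.36 (adjusted p = 0.701, blocked 0.0161), and that from control 0.60 ± 0.36 (adjusted p = 0.554, blocked 0.00691). With both factors the drug difference was 0.46 ± 0.36 (adjusted p = 0.636, blocked 0.0254). pard3.S, the gene of the scaffold of the Par complex, differed from control by 0.03 to 0.13 in the 4 injected groups, with a 95% interval of -0.23 to 0.49 in Pax3 and Zic1 caps with cycloheximide.

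**Figure D4:**
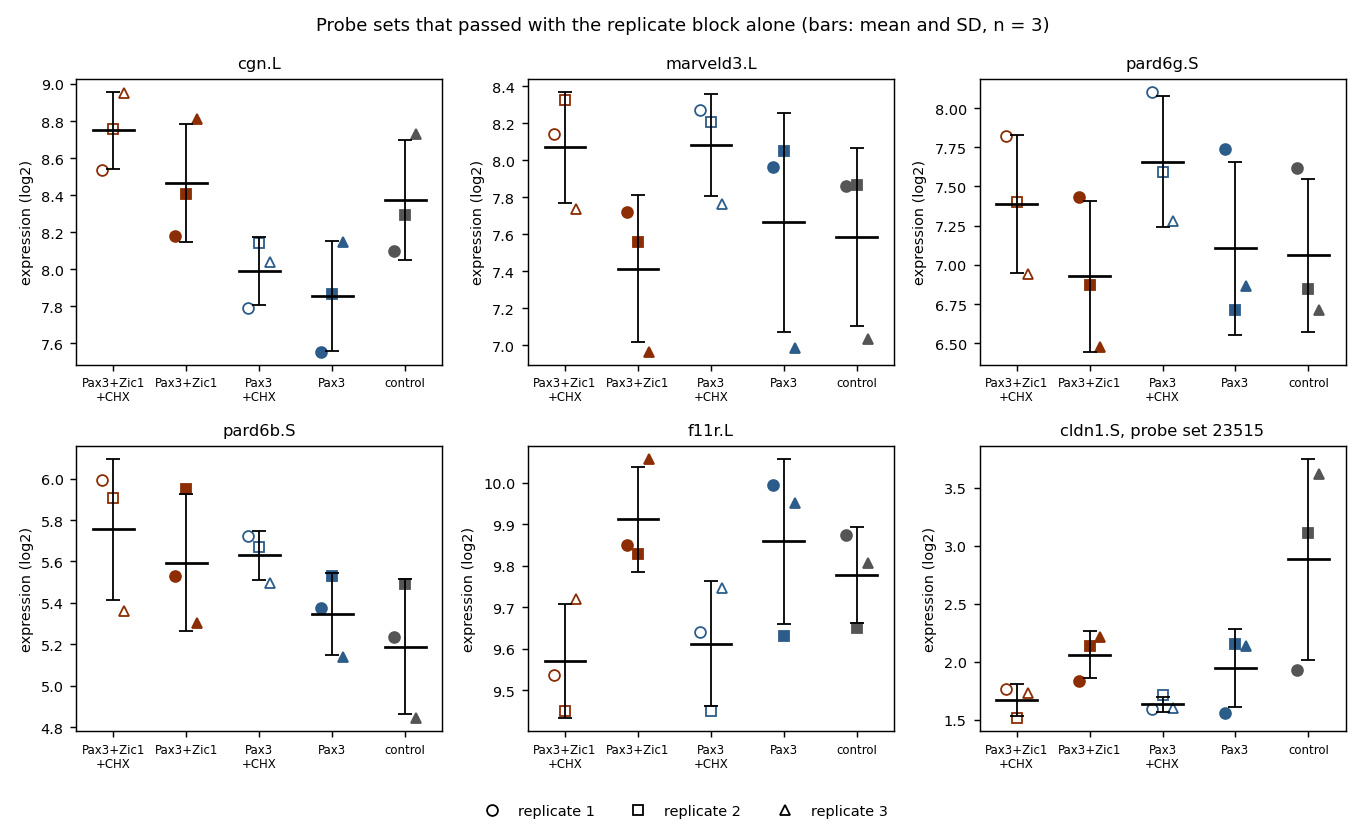
Levels (log2) per sample of 6 probe sets that passed with the replicate block alone, with group mean and SD (n = 3); symbols mark the replicate number, and scales differ and do not start at 0. In the marveld3.L panel replicate 3 is the lowest of every group, and in the cgn.L panel replicate 1 is.

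The drug was also compared at matched factors and hormone. Cycloheximide against none gave 0 passing members with Pax3 alone (0.87% of all probe sets passed) and 0 with both factors (1.59%), and 3 members had an unadjusted p under 0.05 in each. With the block 1 member was higher with Pax3 alone, pard6g.S, where 10.5% of all probe sets passed (5.46% higher). With both factors 3 were higher and 4 lower with the block, where 16.4% of all passed (7.98% higher and 8.45% lower): marveld3.L, pard6g.S and cldn6.2.S above, and f11r.L, f11r.S and the first 2 cldn4.L probe sets below. For cldn5.L the drug difference was -1.01 ± 0.53 with both factors (adjusted p = 0.435) and 0.50 ± 0.53 with Pax3 alone (adjusted p = 0.861). The change of the Zic1 difference with the drug passed for 0 members and for 0% of all probe sets, with or without the block. Without the block 2 members had an unadjusted p under 0.05 there, and with it 3.

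Genes that work with tight junctions but lie outside the naming rule were counted from lists. Those lists, too, were chosen with earlier results of these data known. Of 14 copies of tight junction partners, 1 was higher and 0 lower in Pax3 and Zic1 caps with cycloheximide, and 0 passed in the other 3 comparisons with control, where the shares of all probe sets given above apply. The one that passed was rab13.L, a small GTPase of junction assembly, by 0.67 ± 0.17 (adjusted p = 0.0388). The list's median was 0.11 there, beside -0.03 over all probe sets. With the block 1 was higher and 2 lower in that comparison, rab13.L above and arhgef2.S and sympk.S below. arhgef2.S differed from control by -1.02 with both factors and the drug, -0.995 in Pax3 caps with cycloheximide and -0.97 in Pax3 caps (blocked adjusted p = 0.00519, 0.00784 and 0.0313). vasp.L, an actin regulator, was higher with the block in Pax3 and Zic1 caps, by 0.75 (blocked adjusted p = 0.0187). Of 17 copies of polarity genes outside the rule 1 was higher in Pax3 and Zic1 caps with cycloheximide, where 4.56% of all probe sets passed. It was mark2.S, a Par1 kinase, by 0.69 ± 0.16 (adjusted p = 0.0312), and 0 passed in the other comparisons with control. With the block 2 were higher and 2 lower with both factors and the drug, where 18.9% of all probe sets passed. They were mark2.S and the kinase gene stk11.L above and the small GTPase genes cdc42.L and rac1.L below. In Pax3 caps with cycloheximide 3 were higher with the block, mark2.S, stk11.L and prkcz.L, where 14.9% of all probe sets passed. With the drug against none at both factors, rac1.L, a small GTPase of cell shape, fell by 0.47 ± 0.10 (adjusted p = 0.04).

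Epithelial regulators and proteases numbered 11 copies. The shares of all probe sets given above for each comparison apply to their counts. With both factors and the drug esrp1.L, an epithelial splicing factor, fell by 1.07 ± 0.16 (adjusted p = 0.00283), 1 of 11 to pass, with 4 lower in the blocked fit. It fell by 0.91 ± 0.16 in Pax3 caps with cycloheximide (adjusted p = 0.0111). esrp1.L also differed from control without the drug, passing with the block alone. The differences were -0.816 in Pax3 and Zic1 caps (adjusted p = 0.05495, blocked 0.00571) and -0.820 in Pax3 caps (adjusted p = 0.07739, blocked 0.007622). Without the drug 0 passed in Pax3 and Zic1 caps and 3 were lower with the block, with a list median of -0.55 beside 0.00 over all probe sets. Differences from control were positive for 4 of 11 with both factors and the drug and 2 of 11 without the drug. The drug against none at both factors gave 0 passing copies, and 2 higher and 1 lower with the block. They were grhl3.L by 1.764 and grhl3.S by 1.455 (blocked adjusted p = 0.01955 and 0.01629), and prss8.S by -0.345 (blocked 0.03029). With Pax3 alone the drug difference of grhl3.S was 1.338 (adjusted p = 0.2081, blocked 0.0313).

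Repressors known to shut down junction genes in epithelial-mesenchymal transition numbered 7 copies. Their counts stand beside the shares of all probe sets given above for each comparison. With both factors and the drug 4.56% of all probe sets passed against control caps, 2.21% higher (18.9% with the block). In Pax3 caps with cycloheximide 14.9% passed with the block. The list median was 2.06 in Pax3 and Zic1 caps with cycloheximide against control caps, beside -0.03 over all probe sets. In that comparison 4 of the 7 rose. They were snai1.S by 5.95 ± 0.82 (adjusted p = 0.00144), snai2.L by 3.10 ± 0.60 (adjusted p = 0.0115), zeb2.S by 2.15 ± 0.44 (adjusted p = 0.0157) and snai2.S by 2.06 ± 0.20 (adjusted p = 0.000222). Without the drug 0 passed in Pax3 and Zic1 caps, with 2 higher in the blocked fit, snai1.S by 3.61 ± 0.82 (adjusted p = 0.0957, blocked 8.56e-05) and snai2.L by 1.54 ± 0.60 (adjusted p = 0.55, blocked 0.0238). In Pax3 caps with cycloheximide 1 of the 7 rose, snai2.S by 2.10 ± 0.20 (adjusted p = 0.000288), and 4 were higher with the block. In Pax3 caps 0 passed, and 1 was higher with the block, snai1.S. The drug against none raised snai2.S by 1.73 ± 0.20 with both factors (adjusted p = 0.002) and by 1.78 ± 0.20 with Pax3 alone (adjusted p = 0.00254). These values stand beside the lower cldn4.L and tjp3.L and the higher claudin 5 in the same samples, and their part in either was not tested.

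Markers of other tissues were counted in the same groups. Of all probe sets, 4.56% passed with both factors and the drug and 2.53% in Pax3 caps with cycloheximide (18.9% and 14.9% with the block). Without the drug 0.492% passed with both factors and 0.286% with Pax3 alone (4.35% and 2.14% with the block). In Pax3 and Zic1 caps with cycloheximide 10 of 19 endoderm copies, 3 of 15 mesoderm and muscle copies and 3 of 14 neural copies were higher, and 1 neural copy was lower. With the block these were 13, 5 and 9 higher and 2 neural copies lower. In Pax3 caps with cycloheximide 7 endoderm, 1 mesoderm and 3 neural copies were higher (10, 2 and 8 with the block, with 2 neural copies lower). Without the drug 2 endoderm copies were higher in Pax3 and Zic1 caps and 2 in Pax3 caps, and 0 mesoderm and 0 neural copies passed in either. With the block 8 endoderm, 2 mesoderm and 1 neural copy were higher and 1 neural copy lower in Pax3 and Zic1 caps, and 8 endoderm and 2 neural copies were higher and 1 endoderm copy lower in Pax3 caps. The summed linear level of the endoderm markers ranged from 721.6 to 1846.8 in Pax3 and Zic1 caps with cycloheximide, 403.97 to 992.09 in Pax3 and Zic1 caps, 1655.4 to 2380.4 in Pax3 caps with cycloheximide and 607.95 to 1320.1 in Pax3 caps, against 250.66 to 529.77 in control caps. The part of such cells in the junction results was not tested.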

How the data were processed

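Total RNA from animal caps was hybridised to Affymetrix arrays, and the authors deposited log2 values per probe set; that the scale is log2 was read from their range. R 2.14.2 is named per the submitters' processing notes. Not given in the sources used here were the background correction, the normalization, the summary of probes and the base of the log. Of 32635 probe sets, 96 control probe sets were left out; the platform annotation gave 1 symbol for 15495 of the rest, several for 279 and none for 16765. By gene identifier, all 40 members matched RefSeq's genes of assembly Xenopus_laevis_v10.1, used for names and neighbours.

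Arrays 2.1 and 2.2 of Pax3 and Zic1 replicate 2 were averaged; they differed with an SD of 0.183, where biological replicates of a group differed with 0.517 to 0.759. A single limma 3.58.1 model (lmFit and eBayes under R 4.3.3; 10 residual and 2.17 prior degrees of freedom) held the means of all 5 groups. Tests were two-sided, with Benjamini-Hochberg adjustment over 32539 probe sets within each of 9 comparisons. Files were read with data.table (version 1.17.8). The fit was also run on simulated data with known changes, to check only that its mean estimates recovered them. Rates of recovered and false calls are not given here.

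The labels number biological replicates. With group means removed, samples of one number correlated across probe sets at 0.428 to 0.864 (median 0.730), those of different numbers at -0.096 at most, and all 15 matched best within their number. The weakest were the pairs of Pax3 and Zic1 replicate 3, with 0.428 to 0.511, while no other pair was under 0.605. No label says what a number stands for. The blocked fit had 8 residual and 3.40 prior degrees of freedom.

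Values per sample are given for members that passed, for the 3 best of those passing with the block alone in each comparison, for the brightest probe set of main junction genes, and for the 2 largest differences either way; others by range and count. Lists used the brightest probe set per gene copy. Members, lists and rules were chosen with earlier results of these data known. Alternatives tried were the block, quantile normalization, eBayes with trend and robust, only the groups compared, leaving out the lowest 25% of probe sets by level, either array of the averaged sample alone, and each sample left out.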

Additional observations from a re-analysis of the deposited data

How the results depend on the processing

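No result changed direction. Members that passed numbered 0 in Pax3 caps against control caps, 2 with both factors, 0 in Pax3 caps with cycloheximide and 6 with both factors and cycloheximide. With the replicate block they numbered 1, 7, 11 and 13, and with the block but without Pax3 and Zic1 replicate 3, an alternative chosen after seeing the data, 3, 5, 13 and 14. For Zic1 added to Pax3 the counts of 1 without and 0 with the drug became 3 and 3 with the block and 2 and 3 in that alternative. For the drug they became 1 with Pax3 and 7 with both factors, and 5 and 4 in that alternative, where neither comparison had any without the block. Some blocked calls given above were lost in that alternative. In Pax3 and Zic1 caps against control caps these were cldn18.L and both tjp3.L probe sets. For Zic1 without the drug it was cgn.L, and for the drug with both factors cldn6.2.S, f11r.L and pard6g.S. Fitting only the groups compared, with fewer samples behind the spread, gave 0 in Pax3 and Zic1 caps, 1 in Pax3 caps with cycloheximide, 2 in Pax3 and Zic1 caps with cycloheximide and 0 for Zic1 without the drug; cldn5.L in Pax3 and Zic1 caps then had an adjusted p of 0.0613. Quantile normalization and eBayes with trend and robust each gave 1 in Pax3 caps with cycloheximide, and trend and robust left tjp3.L without a call (adjusted p = 0.063). The cause of these changes was not tested.

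Leaving out 1 sample gave 0 to 1 passing members in Pax3 caps, 1 to 2 in Pax3 and Zic1 caps, 0 to 1 in Pax3 caps with cycloheximide, 3 to 6 in Pax3 and Zic1 caps with cycloheximide, 0 to 2 for Zic1 without the drug and 0 to 1 with it, and 0 for the drug and for the interaction. The 1 in Pax3 caps came without control replicate 1. The 3 came without control replicate 2 or 3 or Pax3 and Zic1 with cycloheximide replicate 1.

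The number of arrays limits the precision, with 3 samples per group. In total 10 members lie among the lowest 25% of probe sets by level, and of these cldn18.L passed. The same samples make up the control in 4 comparisons. Injection and hormone cannot be told apart from the factors in any comparison with control caps.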
